A study of Mus musculus with 16 samples.

Results

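A set of transcription factor genes known from cardiac neural crest and pharyngeal arch mesenchyme of the embryo was followed in single cells of the adult mouse thoracic aorta: Dlx5, Dlx6, Msx1, Msx2, Tfap2a, Tfap2b, Hand2, Prrx1 and Prrx2. They were taken by symbol, as a set proposed with earlier results of these data known, and they are 9 of the 31055 genes in the deposited matrices. Every one was present in the matrices and had enough UMIs (unique molecular identifiers, 1 per captured RNA molecule) to be tested in both cell classes described here. The data were 16 single cell libraries, 1 per male 129S6/SvEv mouse, from the aortic root to the arch. All mice carried Myh11-CreER, a tamoxifen-inducible recombinase driven by the smooth muscle myosin promoter and inserted on the Y chromosome, and all received tamoxifen at 6 weeks of age. Controls had the wild type Smad3 gene (Smad3+/+), and Smad3SmKO mice carried floxed Smad3 alleles that are removed from vascular smooth muscle cells (VSMCs); some mice of either genotype also carried the EGFP-L10a tracer. Aortas were collected 10 weeks after deletion, at 16 weeks of age (2 Smad3+/+ and 2 Smad3SmKO), or 18 weeks after deletion, at 24 weeks of age (5 Smad3+/+ and 7 Smad3SmKO).

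Cardiac neural crest cells migrate through the pharyngeal arches and supply the smooth muscle of the aortic arch and of part of the ascending aorta, while the root and the outer media of the ascending aorta come in large part from the second heart field. In the arches, endothelin signalling turns on Dlx5 and Dlx6, neighbouring distal-less homeobox genes, and these in turn act upstream of Hand2, a basic helix-loop-helix factor also required in the heart. Msx1 and Msx2 are homeobox factors induced by bone morphogenetic proteins, and Tfap2a and Tfap2b encode AP-2 factors needed for neural crest development; inherited changes in TFAP2B cause a syndrome with a persistent ductus arteriosus. Prrx1 and Prrx2 are paired-related homeobox factors of mesenchyme, and mice that lack both have defects of the great vessels.

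The genes lie on 6 chromosomes of the mm10 build. Dlx6 (ENSMUSG00000029754, chr6:6863334-6868568, + strand) and Dlx5 (ENSMUSG00000029755, chr6:6877805-6882085, − strand) are separated by 9236 bases, and the antisense gene Dlx6os1 (chr6:6820189-6871592, − strand) runs across the whole of Dlx6. Tfap2b (ENSMUSG00000025927, chr1:19208914-19238576) and Prrx1 (ENSMUSG00000026586, chr1:163245119-163313710) share chromosome 1. Tfap2a (ENSMUSG00000021359, chr13:40715302-40738376) and Msx2 (ENSMUSG00000021469, chr13:53466884-53473074) share chromosome 13. Prrx2 (ENSMUSG00000039476) is at chr2:30834972-30881251, Msx1 (ENSMUSG00000048450) at chr5:37820485-37824583 and Hand2 (ENSMUSG00000038193) at chr8:57320983-57324633. RefSeq promoter sequences (GRCm38.p6, the same assembly as mm10) matched 7 of the 9 genes. The 4 shown were picked because 3 of these genes (Tfap2b, Msx2 and Prrx2) were found in the same VSMCs and the other, Hand2, was scarce in those cells. Each is the 250 bases before the transcription start, read 5′ to 3′ on the gene's strand (the RefSeq starts of Tfap2b, Msx2 and Prrx2 lie inside the gene spans given above), with capitals for the homeobox core TAATTA or the AP-2 core GCCNNNGGC, both of which read the same on the opposite strand:
Tfap2b, chr1:19211804-19212053: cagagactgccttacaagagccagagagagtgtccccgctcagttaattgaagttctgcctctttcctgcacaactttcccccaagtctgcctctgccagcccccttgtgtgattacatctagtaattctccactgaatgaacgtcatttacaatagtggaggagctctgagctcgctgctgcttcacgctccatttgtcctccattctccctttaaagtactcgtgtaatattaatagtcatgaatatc
Msx2, chr13:53472781-53473030: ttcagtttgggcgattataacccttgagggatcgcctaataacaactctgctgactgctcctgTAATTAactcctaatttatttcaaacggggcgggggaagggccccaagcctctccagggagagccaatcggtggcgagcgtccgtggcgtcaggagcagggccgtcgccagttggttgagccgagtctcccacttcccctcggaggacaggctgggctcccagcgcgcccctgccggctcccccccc
Prrx2, chr2:30845117-30845366: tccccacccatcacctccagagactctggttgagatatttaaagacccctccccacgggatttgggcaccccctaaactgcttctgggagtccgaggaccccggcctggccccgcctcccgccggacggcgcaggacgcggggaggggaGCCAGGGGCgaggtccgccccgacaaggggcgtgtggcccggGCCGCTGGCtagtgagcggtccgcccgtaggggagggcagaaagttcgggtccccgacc
Hand2, chr8:57320733-57320982: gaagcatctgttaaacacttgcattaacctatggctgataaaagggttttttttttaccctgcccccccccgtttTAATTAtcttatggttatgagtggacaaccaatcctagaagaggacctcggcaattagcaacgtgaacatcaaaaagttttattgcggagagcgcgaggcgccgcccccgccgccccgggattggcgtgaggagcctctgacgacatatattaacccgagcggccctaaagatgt
TAATTA stood once each in the Msx2 and Hand2 windows, in Hand2 at 175 bases before the start, and Prrx2 held 2 copies of GCCNNNGGC, the first in the sequence beginning 101 bases before the start. Neither motif was in the Tfap2b window. Of 32851 promoter windows of this length, 4.84% held TAATTA and 13.7% held GCCNNNGGC. A match describes the letters and does not show that a factor bound there.

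A VSMC was taken here as a cell with at least 5 UMIs of Myh11 and more of it than of Dcn, the transcript of the fibroblast proteoglycan decorin, and a fibroblast as the reverse. This gave 8950 VSMCs (22 to 1706 per library) and 36066 fibroblasts (196 to 5505 per library) among 50858 cells that passed the study's limits on genes, UMIs and mitochondrial RNA. The 7 VSMC markers fixed for the check (Myh11, Acta2, Tagln, Cnn1, Smtn, Mylk and Myocd) summed to between 36331 and 73383 CPM (counts per class and library scaled to a common total by edgeR) in the VSMCs of each library, against 1895 to 3334 for 7 fibroblast markers. In all, 5 libraries held fewer than 100 VSMCs, all of them 18 week aortas digested for 30 min. Cell barcodes were shared between 94 of 120 library pairs, by at most 11 kept cells, and at most 0.363% of the smaller library in any pair. Before the limits on cells, up to 3507 deposited barcodes were shared by a pair (18 week Smad3+/+ replicates 4 and 5), of which 2 were kept in both. Smad3 itself did not separate the genotypes. In VSMCs it was at 2.85 to 8.70 normalised CPM in the 18 week Smad3+/+ libraries and 4.40 to 13.9 in those labelled Smad3SmKO, and at 5.66 and 5.85 against 6.06 and 9.28 at 10 weeks. The tags count the 3′ end of the transcript, and a tag outside the deleted part checks no label. The paper reports lower Smad3 RNA and protein in aortas of Smad3SmKO mice, by qPCR relative to Myh11 and by immunoblot. In 4 libraries the tracer label and the presence of GFP UMIs went against each other, so the genotypes are given as labelled.

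In levels, the 9 genes split between the classes. Hand2, Dlx6, Msx2, Tfap2a and Tfap2b were higher in VSMCs than in fibroblasts of the same mouse, Msx1, Prrx1 and Prrx2 were lower, and Dlx5 did not pass the test in either direction. The background was wide, since 69.4% of 16041 genes tested differed between the classes (27.7% higher and 41.7% lower in VSMCs), so that 8 of 9 called genes are to be read against that share. The values give the relative abundance of the transcript.

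Hand2 was measured at 44.4 in the lowest library, 131.5 at the median and 171 in the highest for VSMCs, and at 59.5, 78.5 and 105 for fibroblasts. It was higher in VSMCs in 14 of 16 libraries, by 0.65 on the log2 scale (SE 0.10, adjusted p = 4.63e-06). Dlx6 ran from 0.923 through a median of 3.39 to 14.8 in VSMCs and from 0.563 through 1.22 to 5.32 in fibroblasts, a log2 difference of 1.18 (SE 0.25, adjusted p = 0.000297) that was seen in 14 libraries. The ranges of both genes overlapped between the classes, and the difference showed within mice.

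Msx2 had the largest difference of the 9 (log2 difference 2.42, SE 0.40, adjusted p = 1.75e-05), from a mean of 2.80 ± 3.91 (SD, n = 16 libraries) in VSMCs against 0.457 ± 0.392 in fibroblasts. Its VSMC values ran from 0 through a median of 1.23 to 15.9, so that a few libraries carried most of the mean. Tfap2a was at 2.43 ± 1.65 against 0.848 ± 0.512 (log2 difference 1.66, SE 0.27, adjusted p = 1.67e-05), and was higher in VSMCs in 12 libraries. Tfap2b reached 32.9 in 1 library and 0 in another, with a median of 2.03 in VSMCs and 1.10 in fibroblasts. Its log2 difference was 1.18 (SE 0.44, adjusted p = 0.0212), and it lost the call with at least 10 UMIs of the gate gene (1.01, adjusted p = 0.0856) or in the 11 libraries with 100 or more VSMCs (0.91, adjusted p = 0.142).

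Msx1 was the most fibroblast-weighted of the genes, at 87.0 ± 27.4 in fibroblasts and 28.7 ± 13.8 in VSMCs (SD, n = 16), and was lower in VSMCs in all 16 libraries, as were 14.6% of genes (log2 difference −1.69, SE 0.14, adjusted p = 7.96e-10). The related Msx2 thus went the opposite way. Prrx2 was at 51.6 ± 11.7 in fibroblasts and 26.0 ± 22.7 in VSMCs (−1.21, SE 0.20, adjusted p = 1.26e-05). Prrx1 was at 146 ± 26.9 and 101 ± 38.3 (−0.61, SE 0.12, adjusted p = 0.000108). In VSMCs Prrx2 ranged from 4.79 to 101 and Prrx1 from 57.5 to 189, wider than the fibroblast ranges of 31.9 to 68.7 and 96.3 to 200. Dlx5 was at 4.35 ± 3.56 in VSMCs and 3.94 ± 2.46 in fibroblasts, higher in VSMCs in 6 libraries (0.01, SE 0.29, adjusted p = 0.985), and its sign turned under 4 alternatives.

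**Figure D1:**
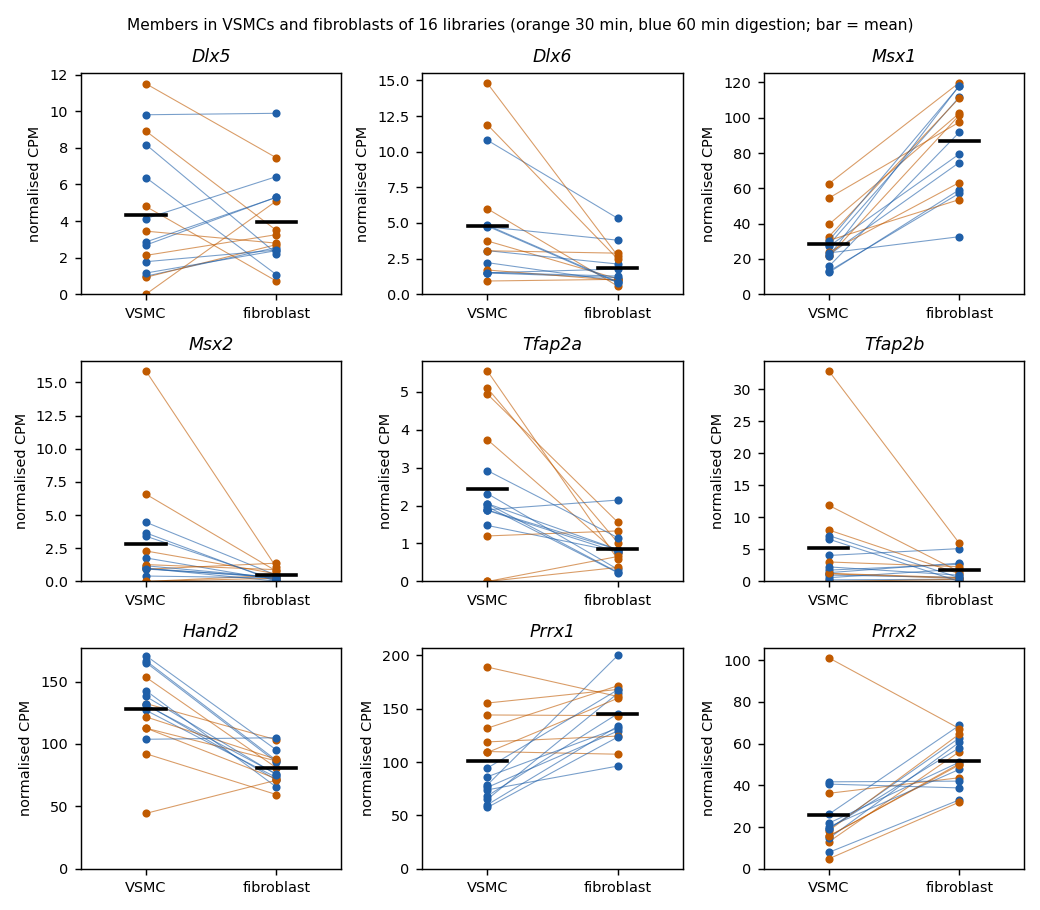
Normalised CPM of the 9 genes in VSMCs and fibroblasts, with the 2 classes of each library joined by a line (orange, 30 min digestion; blue, 60 min) and the mean of 16 libraries as a bar. Msx1 fell from fibroblasts to VSMCs in every library, while Hand2 and Dlx6 were higher in VSMCs in 14 of 16.

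The share of cells with at least 1 UMI also set 4 frequent genes apart from 5 scarce ones. Over all VSMCs, Hand2 was detected in 58.3% of cells, Prrx1 in 38.4%, Msx1 in 15.1% and Prrx2 in 10.7%, and the other 5 genes in 1.42% (Msx2) to 2.82% (Dlx5). Large 60 min libraries weigh most in these pooled shares. As a mean over libraries, Hand2 was in 59.3% of VSMCs, Prrx1 in 52.3%, Msx1 in 23.3% and Prrx2 in 12.8%, and the scarce genes ran from 2.33% (Msx2) to 4.04% (Tfap2b). In fibroblasts Prrx1 was detected in 57.0%, Hand2 in 44.0%, Msx1 in 42.6% and Prrx2 in 29.7%. Depth moves such shares: with each cell thinned to 4000 UMIs (909 VSMCs and 6044 fibroblasts were shallower and left out), Hand2 was in 37.1% of VSMCs and 25.7% of fibroblasts, Prrx1 in 22.0% and 37.1%, Msx1 in 7.50% and 26.9% and Prrx2 in 6.12% and 16.6%.

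Leukocytes, which are not of neural crest origin, gave the background. Of 2816 leukocytes, 2.10% had a UMI of Hand2, 1.60% of Prrx1, 1.10% of Msx1 and 0.604% of Prrx2, with median depths of 3147 to 10288 UMIs per library against 5812 to 21902 in VSMCs. Dlx5 and Tfap2b were at 0 of 2816 leukocytes, which allows a share of up to 0.107%, so their low shares in VSMCs stood above the leukocyte share. Endothelial cells were not such a background for every gene. Of 873 endothelial cells, Dlx5 was found in 5.15% and Dlx6 in 3.44%, above their pooled shares in VSMCs. Msx1 was found in 202 of them (23.1%), with a median over libraries of 21.1% against 23.0% in VSMCs. Hand2 was found in 6.53% of endothelial cells, Prrx1 in 6.41% and Prrx2 in 3.55%, below their shares in VSMCs. Tfap2a was at 0 of 873 endothelial cells, which allows up to 0.344%. These limits cover counting error only.

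Of 29 other genes of the neural crest and arch mesenchyme 22 were tested, 3 were higher in VSMCs (Dlx2, Alx1 and Foxf1) and 13 were lower, where 27.7% of all genes were higher and 41.7% lower, with a median log2 difference of −0.74 against −0.15 over all genes and 0.65 over the 9 members. Alx1, an aristaless homeobox gene of cranial mesenchyme, was higher by 2.00 (SE 0.25, adjusted p = 3.12e-07) and Foxf1, a forkhead factor of lateral mesoderm, by 1.10 (SE 0.15, adjusted p = 1.97e-06). The zinc finger gene Snai1 was lower by 4.46 (SE 0.17, adjusted p = 3.35e-15), and Twist1, Twist2, Sox9 and Bmp4 were lower too. Of 17 heart field and outflow tract genes, all tested, 7 were higher and 9 lower, with a median of −0.29.

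Within single VSMCs, 4 of the genes were found together. The number of cells with UMIs of both genes of a pair was compared with the number that would follow if they were independent inside each library and each of 4 depth classes of its cells. Dlx5 and Dlx6 were found together in 89 VSMCs against 10.0 expected (8.89 times, above expectation in 13 libraries and below it in 1), and 42.6% of VSMCs with Dlx6 also had Dlx5. These are the neighbouring genes of chromosome 6. Dlx6 and Msx2 were together in 62 cells against 5.14, Dlx6 and Tfap2b in 58 against 7.70, Dlx5 and Tfap2b in 53 against 9.11, Dlx5 and Msx2 in 49 against 6.37 and Msx2 and Tfap2b in 40 against 5.78. All 6 pairs of Dlx5, Dlx6, Msx2 and Tfap2b, which lie on 3 chromosomes, were at 5.82 to 12.1 times expectation, as a description with no test.

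Prrx2 went with these 4 genes. It was found in 75.6% of VSMCs with Msx2, 68.1% with Tfap2b, 65.1% with Dlx6 and 52.8% with Dlx5, against 10.7% of all VSMCs, at 3.53 to 5.05 times expectation. Prrx1 was above expectation by less, at 1.39 to 1.57 times. Hand2 was found less often with each: 7 VSMCs had both Tfap2b and Hand2 against 81.5 expected (0.0859 times, below expectation in 15 libraries and above it in 0), so that 4.38% of VSMCs with Tfap2b had Hand2 against 58.3% of all. The counts were 22 against 67.9 for Msx2, 49 against 117 for Dlx6 and 86 against 145 for Dlx5. Hand2 and Prrx2, both frequent, were together in 491 cells against 603 (below expectation in 15 of 16 libraries). Msx1 and Tfap2a were nearer to expectation, with Msx1 and Hand2 in 930 VSMCs against 894, Msx1 and Prrx2 in 161 against 174, and Tfap2a and Tfap2b in 7 against 3.59.

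**Figure D2:**
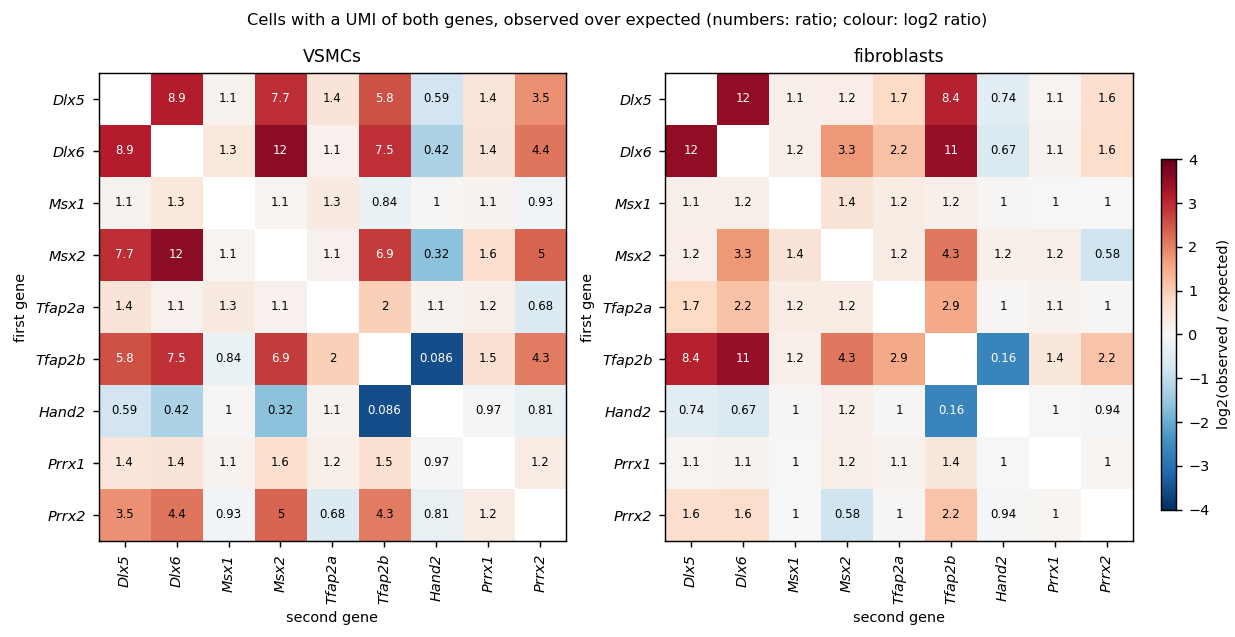
Ratio of observed to expected cells with both genes, for each pair of the 9 genes, in VSMCs (left) and fibroblasts (right); colour is the log2 ratio, and expectation is taken within library and depth class. Pairs among Dlx5, Dlx6, Msx2 and Tfap2b in VSMCs ran from 5.82 to 12.1, and Hand2 with Tfap2b stood at 0.0859.

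No member was found in 21.7% of VSMCs, 1 in 40.1% and 4 or more in few, with 7 in 3 cells and 8 in 1. At least 2 of Dlx5, Dlx6, Msx2 and Tfap2b, a set picked after the pairs had been seen, were found in 186 VSMCs (2.08%). Of these cells 142 (76.3%) had Prrx2, against 9.35% of the other VSMCs, and 26 (14.0%) had Hand2, against 59.3%. In fibroblasts 258 cells (0.715%) had at least 2 of the 4, and 70.2% of them had Prrx2 against 29.4% of the others, and 27.1% had Hand2 against 44.1%. The cells came from most libraries. In VSMCs the shares were 3.34% and 0.117% in the 10 week Smad3+/+ libraries, 0.703% and 1.18% in those labelled Smad3SmKO, 0, 3.09, 4.17, 1.74 and 0.752% in the 18 week Smad3+/+ libraries, and 13.6, 2.09, 11.5, 4.55, 1.23, 4.70 and 8.12% in the 18 week libraries labelled Smad3SmKO. The 2 highest shares, in replicates 1 and 3 labelled Smad3SmKO, rest on 59 and 87 VSMCs, and 1.23% in replicate 5 on 1381.

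**Figure D3:**
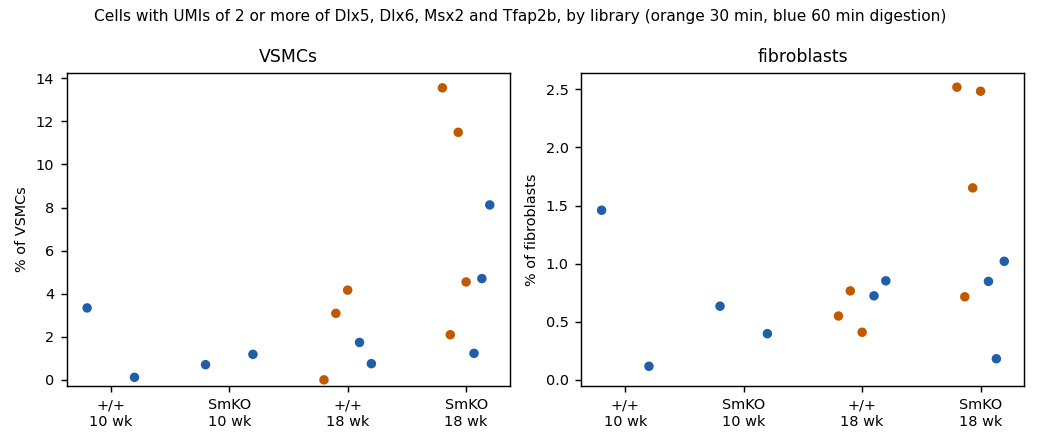
Percent of VSMCs and of fibroblasts in each library with UMIs of at least 2 of Dlx5, Dlx6, Msx2 and Tfap2b, by genotype and weeks after deletion; each point is 1 library (orange, 30 min digestion; blue, 60 min). VSMC shares ran from 0 to 13.6% and fibroblast shares from 0.117 to 2.52%, and the groups overlapped.

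To see what else marked these cells, the VSMCs with a UMI of each member were summed per library and compared with those without, in libraries with at least 10 cells on each side. This asks of the other genes only, and it uses the same cells as the pair counts, so it adds their size and test over libraries and no independent sample. VSMCs with Dlx5 (211 cells in 7 libraries) differed from those without in 7.28% of 12196 genes (2.21% higher and 5.07% lower). Dlx6 was at 46.4 normalised CPM with and 2.07 without Dlx5 (log2 difference 4.40, SE 0.30, adjusted p = 1.41e-17), higher in 7 of 7 libraries. Msx2 was at 22.0 and 1.05 (4.22, SE 0.38, adjusted p = 6.1e-13), Tfap2b at 26.5 and 1.72 (3.48, SE 0.37, adjusted p = 9.66e-11) and Prrx2 at 139 and 18.4 (2.61, SE 0.16, adjusted p = 1.83e-19), each higher in 7 of 7. Prrx1 rose by less, from 64.8 to 124 (0.77, adjusted p = 2.4e-06). Hand2 was at 70.9 with and 128.1 without Dlx5 (−1.21, SE 0.15, adjusted p = 3.29e-08), lower in 7 of 7. Msx1 differed by 0.01 and Tfap2a by 0.20, and neither passed. Cells with Dlx5 had a median of 9452 UMIs against 7829.

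Tfap2b and Hand2 were seldom in the same VSMC. VSMCs with Tfap2b, compared in 7 libraries, had a median depth of 9738 UMIs against 9710, and 8.49% of 11792 genes differed (2.48% higher and 6.00% lower). Hand2 was at 10.8 with and 115 without Tfap2b (−3.58, SE 0.27, adjusted p = 2.61e-15), lower in every one of the 7. Prrx2 was at 214 and 27.7 (2.77, SE 0.16, adjusted p = 1.04e-19), Prrx1 at 255 and 107 (1.18, SE 0.14, adjusted p = 3.08e-09), and Dlx5, Dlx6 and Msx2 were higher by 3.47, 3.91 and 3.60. The reverse split showed the same opposition. In VSMCs with Hand2 (5220 of 8950 cells, 16 libraries), Tfap2b was at 0.299 against 13.5 without it (−4.86, SE 0.29, adjusted p = 2.28e-13), lower in 15 libraries and higher in 0. Prrx2 was at 11.9 against 49.6 (−1.47, SE 0.17, adjusted p = 3.57e-07), lower in 16 of 16. Here depth moved too, with a median of 9331.5 UMIs against 6416, and the genes called fell from 1385 (11% of 12568, 6.92% higher and 4.10% lower) to 109 with cells thinned to 4000 UMIs.

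**Figure D4:**
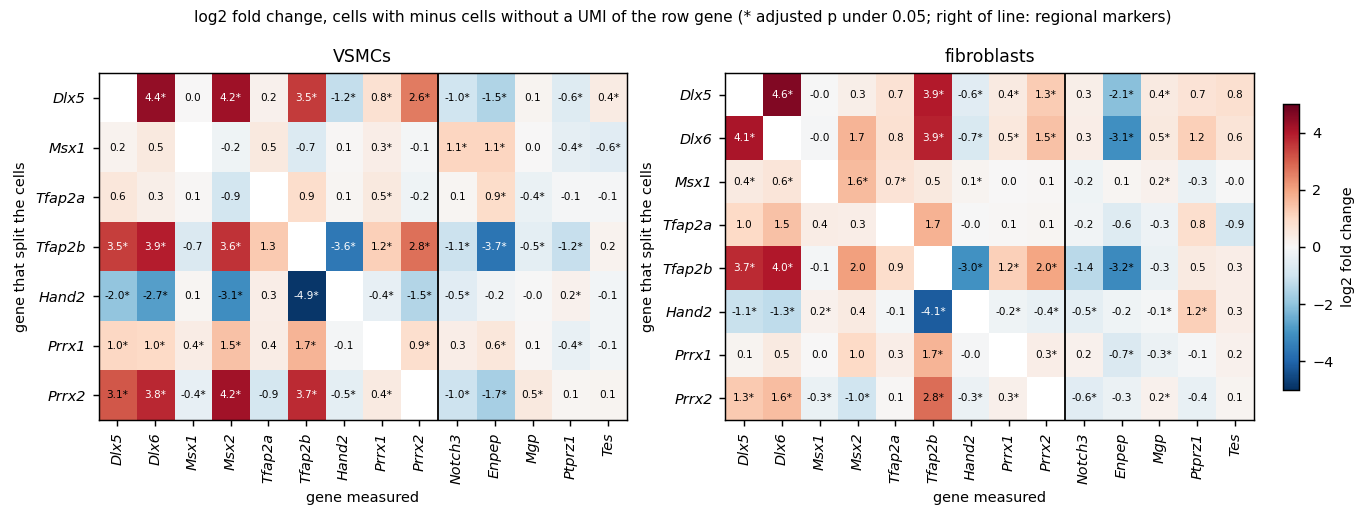
Log2 difference of each column gene between cells with and without a UMI of the row gene, in VSMCs and fibroblasts, for the 9 members and 5 markers of position in the aorta; a star marks adjusted p under 0.05 (edgeR), and the cell of a gene with itself is blank. Dlx5, Tfap2b and Prrx2 rows share a rise of one another, of Dlx6 and of Msx2, and a fall of Hand2 and of Enpep, in VSMCs.

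The splits by Prrx2, Prrx1, Msx1 and Tfap2a followed the pair counts. VSMCs with Prrx2 (949 cells in 13 libraries, 9.63% of genes called, 3.86% higher and 5.77% lower) were higher for Dlx5 by 3.11, Dlx6 by 3.76, Msx2 by 4.20 and Tfap2b by 3.74 in 13 of 13 libraries, and lower for Hand2 by 0.50 (88.6 against 127) and for Msx1 by 0.41 (22.5 against 26.4, adjusted p = 0.024). Msx1 was lower in 8 of the 13 libraries, and its call was lost in edgeR with the purer gate (−0.38, adjusted p = 0.0657). Cells with Prrx2 had a median of 10541 UMIs against 7683. VSMCs with Prrx1 (4.67% of genes called) were higher for Prrx2 by 0.85 in 15 of 15 libraries, for Tfap2b by 1.71 and for Msx1 by 0.36 (adjusted p = 0.03, and 0.651 with the purer gate). Dlx5 (1.02), Dlx6 (0.98) and Msx2 (1.46) were called higher there too, each with a call that depended on the processing. Dlx6 was higher in 9 of 15 libraries, and its call was lost with DESeq2 (0.74, adjusted p = 0.397), with the purer gate and with thinned cells. In edgeR the Dlx5 call was lost with thinned cells (0.81, adjusted p = 0.218). The Msx2 call was lost in edgeR with the purer gate (1.32, adjusted p = 0.0547). VSMCs with Msx1 (4.26% called, 2.06% higher and 2.21% lower) differed in 1 other member, Prrx1 (0.34, adjusted p = 0.0142), and that call was lost with thinned cells (0.07). VSMCs with Tfap2a (148 cells in 9 libraries) differed in 0.84% of genes, with Prrx1 as the 1 member called (0.51, adjusted p = 0.0155). In edgeR that call was lost with the purer gate (0.30, adjusted p = 0.84) and with no filter (0.46, adjusted p = 0.0552). Cells with Tfap2a had a median of 11774 UMIs against 8195.5. Dlx6 and Msx2 had at least 10 such VSMCs in too few libraries (5 and 4, with 6 required) and were not fitted.

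The study placed VSMC transcripts along the aorta, with Notch3, Enpep and Mgp toward the root and Ptprz1 and Tes further downstream. It picked these transcripts from the present libraries and then located them on tissue sections. Enpep, an aminopeptidase, was lower in VSMCs with Dlx5 (−1.51, SE 0.37, adjusted p = 0.00466), Tfap2b (−3.66, SE 0.54, adjusted p = 8.64e-07) and Prrx2 (−1.68, SE 0.20, adjusted p = 2.01e-07), and so was Notch3, a receptor of mural cells (−0.98, −1.08 and −1.05, with adjusted p = 0.042, 0.0161 and 0.000443). The Notch3 calls for Dlx5 and Tfap2b were lost with DESeq2 (−1.07 and −1.21, adjusted p = 0.148 and 0.116) and with edgeR's filterByExpr (−0.93 and −0.99, adjusted p = 0.073 and 0.0851), at differences of about the same size. Of the distal markers, Tes was higher with Dlx5 by 0.43 (adjusted p = 0.0226, and 0.255 by DESeq2), while Ptprz1 was lower with Dlx5 (144 against 190) and Tfap2b (68.6 against 129), and Mgp was higher with Prrx2 (9294 against 5934) and lower with Tfap2b (6442 against 7295, lower in 5 of 7 libraries). The last call was lost with DESeq2 (adjusted p = 0.112) and filterByExpr (0.165). VSMCs with Msx1 went the other way for Notch3 and Enpep. Notch3 was at 55.5 against 27.5 (1.08, SE 0.12, adjusted p = 1.44e-07) and Enpep at 44.9 against 22.9 (1.09, SE 0.10, adjusted p = 1.36e-08), each higher in 14 of 14 libraries. The cells with Msx1 were also deeper, with a median of 11740 UMIs against 7575. A list of 9 digestion stress genes, such as Fos and Jun, was higher with Msx1 in 14 of 14 libraries (median 5002 against 3937). The part of digestion stress in this split was not tested. Tes was lower with Msx1 by 0.55. Ptprz1 was lower with Msx1 by 0.43, the same direction as with Dlx5 and Tfap2b. That Ptprz1 call was lost with DESeq2 (−0.61, adjusted p = 0.0519). With Hand2, Notch3 was lower by 0.55 and Ptprz1 higher by 0.23, and both calls were lost with thinned cells.

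A few cardiac factor genes were lower in VSMCs with Tfap2b. Tbx20, a T-box factor of the heart and outflow tract, was at 0.874 CPM in VSMCs with Tfap2b against 19.9 without (adjusted p = 3.28e-07), and Gata4, a zinc finger factor of the heart fields, at 0.891 against 11.5 (adjusted p = 0.000526), each lower in 7 of 7 libraries. With Dlx5 Tbx20 was at 8.48 against 22.2 and Gata4 at 2.28 against 8.06, and with Prrx2 they were at 9.60 against 21.9 and 4.03 against 11.3. Of 17 heart field genes, 3 were lower and 0 higher with Dlx5 (14 tested) and with Tfap2b (13 tested), Tbx20, Gata4 and Tbx2 in each, where 5.07% and 6.00% of all genes were lower. Prrx2 had 5 lower and 1 higher of 14 (5.77% and 3.86% of all genes), and the higher one was Isl1, the LIM homeobox gene of second heart field progenitors (6.16 against 1.58). Of the neural crest and arch list, Foxf1 and the endothelin receptor gene Ednra were higher with Dlx5 (41.7 against 14.5, and 16.9 against 4.96) and with Tfap2b (59.8 against 14.1, and 32.3 against 14.2), while Meis2 was lower with both. That made 2 higher of 14 and 2 higher of 13, where 2.21% and 2.48% of all genes were higher. In VSMCs with Msx1, 4 of 14 heart field genes were higher (Tbx20, Gata4, Tbx2 and Tbx3), against 2.06% of all genes, and 0 lower.

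The genes most like each member were those with the largest rise that was seen in every library. For Dlx5 they were Dlx6os1 (log2 difference 4.54), the glutamate receptor subunit Grin2b (4.32), Lrrtm3 (3.88), Fam107a (3.51) and Eps8 (3.42). For Tfap2b they were Grem1, a secreted antagonist of bone morphogenetic proteins, at 27.1 against 0.687 (5.06), then Dlx6os1 (4.31), Grin2b (3.75), Fbln7 (3.55) and Pianp (3.48). For Prrx2 they were Grin2b (4.23), Dlx6os1 (3.44), Pianp (3.19), Adamtsl1 (2.85) and Gng2 (2.71). Grin2b and Dlx6os1 stood in all of these lists. Hand2 had small rises, in 16 of 16 libraries, of contractile and associated genes: Hspb6 (0.45), Sgca (0.43), smooth muscle actin Acta2 (0.33), calponin Cnn1 (0.32) and Ppp1r14a (0.32). For Msx1 they were Cd93 (1.82), Stk32b (1.60), the connexin gene Gja4 (1.43), Olfr558 (1.40) and Rtn4rl1 (1.27), in 14 of 14.

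Markers of other cells moved with these splits. The 7 VSMC markers summed to a median of 45751 with and 57864 without Tfap2b, lower in all 7 libraries, and to 47640 against 57534 with Dlx5, lower in all 7, while with Hand2 they were higher in 16 of 16. A list of 5 pericyte genes summed to 3828 against 594 with Tfap2b and 2334 against 403 with Dlx5 (higher in 7 of 7 each) and to 1415 against 271 with Prrx2 (13 of 13), with 226 against 849 for Hand2 (0 of 16). The rise came from Rgs5, a regulator of G protein signalling (3896 against 455 with Tfap2b), and the potassium channel gene Kcnj8 (118 against 24.7), while Higd1b, another pericyte gene, was lower (3.48 against 13.9). Heart muscle markers were at a median of 0 with Tfap2b against 134 without, and at 1.55 against 145 with Dlx5. The 5 leukocyte markers were at 0 against 18.2 with Tfap2b. The part of these markers in the results was not tested. With the purer gate, which keeps 6515 VSMCs with few UMIs of other cell types, the 6 members called lower with Hand2 were still called, while too few libraries were left for the splits by Dlx5 and Tfap2b. Of these 6, Prrx1 (−0.42) lost the call with cells thinned to 4000 UMIs (−0.13, edgeR adjusted p = 0.737).

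In fibroblasts the same opposition held, while Msx2 was too scarce there to be placed with or apart from Dlx5, Dlx6 and Tfap2b. Dlx5 and Dlx6 were together in 167 fibroblasts against 14.2 expected (11.8 times, in 16 of 16 libraries), Dlx5 and Tfap2b in 92 against 10.9 and Dlx6 and Tfap2b in 59 against 5.32. Dlx5 and Msx2 were together in 6 against 4.99. Tfap2b and Hand2 were together in 22 against 136, below expectation in 15 libraries and above it in 0. Msx2 went with Msx1 (127 against 88.8) and was found with Prrx2 less often than expected (36 against 62.0), where in VSMCs it was found more often.

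Fibroblasts with Tfap2b (278 cells in 12 libraries, 11.8% of 15425 genes called) had Prrx2 at 244 against 52.8 (log2 difference 1.99, adjusted p = 4.89e-11), Prrx1 at 373 against 138 (1.20, adjusted p = 2.1e-07) and Hand2 at 13.2 against 80.3 (−3.04, adjusted p = 1.04e-09), lower in 12 of 12. Foxf1 was at 64.4 against 5.84 and the water channel gene Aqp1 at 698 against 77.0, each higher in 12 of 12. Tbx20 was at 9.43 against 84.3 and Gata4 at 2.97 against 22.3. Fibroblasts with Dlx5 (903 cells in 15 libraries, 19.2% called) had Dlx6 at 24.8 against 1.10 (4.62, adjusted p = 2.5e-11) and Hhip, a hedgehog-binding protein gene, at 131.8 against 49.3. They also had Pecam1, the endothelial adhesion gene, at 209 against 27.2 in 15 of 15, and 5 endothelial markers summed to a median of 151 against 30.7. Of these Kdr was lower (0.989 against 2.43), and the part of endothelial RNA was not tested. Fibroblasts with Msx1 (15.2% called) were higher for Msx2 (0.691 against 0.228) and Tfap2a (1.08 against 0.703), and the calls for both were lost with thinned cells, where the difference was 0.68 for Msx2 against 1.56 and 0.76 for Tfap2a against 0.70. In edgeR Hand2 (0.15, adjusted p = 0.00257), Dlx5 (0.43, adjusted p = 0.0103) and Dlx6 (0.60, adjusted p = 0.0255) were called higher there too. With thinned cells the Dlx5 and Dlx6 calls were lost (0.40 and 0.22, edgeR adjusted p = 0.0898 and 0.705). The Dlx5 call was also lost with the purer gate (0.35, edgeR adjusted p = 0.0785).

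The other members split the fibroblasts as follows. Fibroblasts with Dlx6 (381 cells in 14 libraries, 13.2% of genes called) had Dlx5 higher by 4.07, Tfap2b by 3.86 and Prrx2 by 1.46, and Hand2 lower by 0.75 (adjusted p = 7.27e-05). The genes most like Dlx6 there were Icam2 (3.43), Prss12 (3.08), Pecam1 (2.86), the cartilage matrix gene Chad (2.75) and Aqp1 (2.52). Prss12, a secreted protease, was also among those most like Dlx5 (2.64), Tfap2b (3.14) and Prrx2 (1.78).

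Fibroblasts with Hand2 (20.5% called) had Tfap2b lower by 4.14, Dlx6 by 1.27 and Dlx5 by 1.10, and Prrx2 by 0.36. Depth differed here too, with a median of 11249 UMIs with Hand2 against 6301 without. With thinned cells the Dlx6 call was lost (−0.50, edgeR adjusted p = 0.376). The leading genes of fibroblasts with Hand2 were Eps8l2 (1.90), Cilp2 (1.80), Col11a2 (1.53), the ligand gene Wnt16 (1.48) and Prss35 (1.46). Fibroblasts with Prrx2 (22.3% called) had Tfap2b at 3.70 against 0.643 and Hhip at 80.7 against 31.9, and fibroblasts with Prrx1 (9.21% called) had Tfap2b higher by 1.70 and Prrx2 by 0.32. Coch, a matrix gene of 1 fibroblast subset, divided the members: it was higher in fibroblasts with Msx1 (48.3 against 9.35) and with Hand2 (by 1.63), and lower with Prrx2 (by 2.92) and with Dlx5 (by 2.12). In VSMCs, where Coch was scarce, it ran the opposite way, at 13.9 with and 0.184 without Dlx5, 3.48 and 0.342 for Prrx2, and 0.167 and 1.69 for Hand2, each past the threshold. Fibroblasts with Tfap2a (3.95% called) were led by Rspo3 (1.45), a Wnt signal enhancer, Mtss1l (1.33), Aqp1 (1.20), S100b (1.13) and Sesn3 (0.91). Msx2 had too few libraries for a fit in fibroblasts too.

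The genotypes were compared at each time after deletion, with the batch as a term. No member passed the test in either class at either time. At 10 weeks 0 of 12569 genes were called in VSMCs (1.88% had an unadjusted p under 0.05, and DESeq2 called 1), and at 18 weeks 4 were (0.0318%, with 4.81% at an unadjusted p under 0.05), none of them a member.

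Prrx2 had the smallest p at 18 weeks. Its values in VSMCs were 13.3, 15.4, 4.97, 14.0 and 18.2 in Smad3+/+ replicates 1 to 5 and 38.2, 15.98, 104, 19.0, 18.0, 40.3 and 39.3 in replicates 1 to 7 labelled Smad3SmKO. In 5 of the 7 the value was above every control, and replicate 3 stood far above the other 6. Replicates 5 and 7 came from a batch with no Smad3+/+ library, so with the batch term they add nothing to the genotype difference. The log2 difference was 1.51 (SE 0.52, unadjusted p = 0.0102, adjusted p = 0.969 by edgeR). The mean was higher in the mice labelled Smad3SmKO in 4 of 4 batches with both genotypes (60.0 against 13.3, 38.2 against 4.97, 19.0 against 15.4 and 40.3 against 16.1). Some of these values rest on few UMIs of Prrx2, with 4 behind 4.97 and 6 behind 19.0. After thinning, 4.04% ± 2.31 (SD, n = 5) of VSMCs had a UMI of Prrx2 in Smad3+/+ mice and 11.6% ± 6.27 (n = 7) in those labelled Smad3SmKO.

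Tfap2b was at 0, 8.00, 1.24, 0.954 and 1.70 in the 18 week Smad3+/+ libraries and at 34.7, 1.30, 12.2, 3.16, 2.13, 7.11 and 6.23 in those labelled Smad3SmKO, from 0 to 56 UMIs per library. The groups overlapped, through control replicate 2. The log2 difference was 2.20 (SE 0.81, unadjusted p = 0.0155, adjusted p = 1). Dlx5 was at 0.950, 3.43, 4.97, 1.11 and 1.70 against 12.1, 2.16, 9.19, 0, 2.51, 8.13 and 6.01 (1.79, SE 0.73, unadjusted p = 0.0264). Msx2 was at 0.917 ± 0.865 (SD, n = 5) against 4.61 ± 5.65 (n = 7), and Dlx6 at 2.75 ± 2.22 against 6.21 ± 5.51. These 3 were higher in 3 of 4 batches and had an adjusted p of 1. Msx1 (42.5 ± 16.5 against 26.3 ± 5.24) and Hand2 (134 ± 16.03 against 106 ± 30.0) were lower on average in 3 of 4 batches, with adjusted p of 1, and their sign turned with 60 min digestions alone. Prrx1 (108 ± 34.2 against 118 ± 49.3) was higher in 4 of 4 batches by a log2 difference of 0.23 (SE 0.15, edgeR unadjusted p = 0.137, adjusted p = 1). Tfap2a (2.97 ± 1.77 against 2.42 ± 2.15) was lower in 3 of 4.

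Of the 9 members 4 (Dlx5, Msx2, Tfap2b and Prrx2) had an edgeR unadjusted p under 0.05 with the higher value in mice labelled Smad3SmKO, against 2.41% of all genes in that direction. These 4 were found in the same VSMCs, so they are not 4 separate readings. The calls depend on the filter: with every detected gene in the fit, edgeR called 134 genes and all of these 4 (adjusted p = 0.0098 for Dlx5, 0.0496 for Msx2, 0.000174 for Tfap2b and 3.69e-09 for Prrx2), while DESeq2 called none of them (0.345 for Prrx2). The pericyte list summed in VSMCs to 143 to 430 in 18 week Smad3+/+ libraries and to 230 to 1365 in those labelled Smad3SmKO, and its part in the difference was not tested.

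**Figure D5:**
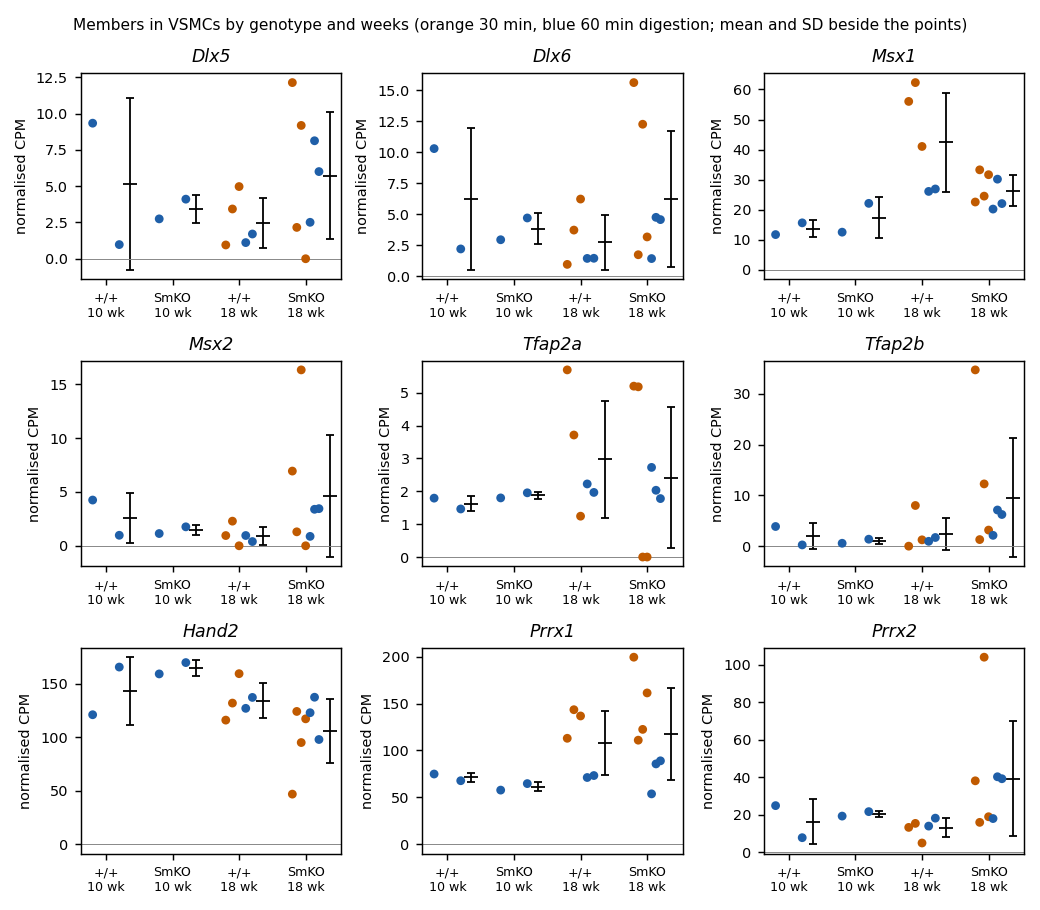
Normalised CPM of the 9 genes in VSMCs by genotype and weeks after deletion; each point is 1 library (orange, 30 min digestion; blue, 60 min) and bars are mean ± SD. Prrx2 was at 4.97 to 18.2 in the 5 Smad3+/+ libraries and 15.98 to 104 in the 7 labelled Smad3SmKO at 18 weeks, and no gene passed the adjusted test.

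At 10 weeks, with 2 mice per genotype, the VSMC values were 24.9 and 7.80 (Smad3+/+) against 19.3 and 21.7 (labelled Smad3SmKO) for Prrx2, 3.87 and 0.244 against 0.5683 and 1.37 for Tfap2b, and 121 and 165 against 159 and 170 for Hand2. For each of these 3 genes the 2 controls of the batch differed from each other by more than the genotype means did, and without Smad3+/+ replicate 1 the sign turned for Dlx5, Dlx6, Msx2, Tfap2b and Hand2. The difference between the genotype effects at 18 and 10 weeks was 3.65 for Tfap2b (SE 1.35, unadjusted p = 0.0161, adjusted p = 1) and 1.27 for Prrx2, and no member passed (0.00796% of genes did, and 2.58% had an unadjusted p under 0.05). In fibroblasts 0 of 15688 genes were called at 10 and at 18 weeks (0.918% and 2.65% at an unadjusted p under 0.05, and 3 and 3 by DESeq2), and none for the difference between times (1.03% unadjusted, and 1 by DESeq2). Dlx5 there was at 2.73, 2.78, 0.715, 2.36 and 2.45 in the 18 week Smad3+/+ libraries and at 7.57, 3.25, 3.51, 5.15, 5.39, 2.25 and 1.10 in those labelled Smad3SmKO (0.86, SE 0.54, unadjusted p = 0.14), and Prrx2, by contrast with VSMCs, differed by 0.02.

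Prrx1 also differed between batches of different digestion time. At 18 weeks VSMC Prrx1 was at 111 to 199 in the 7 libraries digested for 30 min and at 53.8 to 89.0 in the 5 digested for 60 min, with no overlap, where 2.24% of genes tested in VSMCs did not overlap in either direction and 0.788% were lower throughout at 60 min. Msx1 overlapped (22.5 to 62.3 and 20.2 to 30.1), and so did Prrx1 in fibroblasts (108 to 171 and 95.6 to 172), where 2.98% of genes did not overlap and 1.71% were lower at 60 min. Batches were nested in digestion time, so batch and digestion cannot be told apart here; both times held both genotypes.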

How the data were processed

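The authors deposited 1 matrix of UMI counts per library (whole-number counts per gene and cell, not normalised), made from 10x Genomics 3′ v3 libraries of sorted viable cells against mm10 with a GFP sequence added. The matrix headers name Cell Ranger 4.0.0, and the submitters' processing notes name Cell Ranger 6 and Seurat 4. Deposited UMIs per library ran from 12539539 to 52843031. Cells were kept within the study's limits, namely 600 to 6000 detected genes (both excluded), a UMI total between 2000 and 50000 and a mitochondrial share below 25%, which left 50858 of 66349 barcodes. No doublet caller was run beyond these upper limits.

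Counts were summed per library and class and tested with edgeR 4.0.16 (quasi-likelihood, genes with at least 50 UMIs in all, Benjamini-Hochberg adjustment over all genes, threshold 0.05). The genotype fit held the batch and a genotype effect at each time, and the fits between classes, and between cells with and without a gene, held the library as a block. A class sum needed 20 cells. The genotype fits, the fit between classes and the VSMC split by Tfap2b were tested on simulated counts with known changes. A log2 change of 1 was recovered for genotype in VSMCs in 17.35% of changed genes at 18 weeks and 1.01% at 10 weeks. In fibroblasts these were 24.49% and 5.05%. For a log2 change of 2 the VSMC values were 79.59% and 50.51%. These percentages cover all changed genes together. For genotype at 18 weeks in VSMCs the log2 difference had an SE of 0.81 for Tfap2b and 0.94 for Msx2. Recovery for genes as scarce and variable as these members was not tested separately. A member that did not pass for genotype can therefore still differ. Alternatives were DESeq2 1.42.0, other filters and gates, thinned cells, digestion times alone and leaving out each library. The purer gate asked for under 3 UMIs of other cell types' markers.

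Groups came from the genotype and weeks labels. Titles give no replicate numbers, so these follow deposit order and name a sample only. With 1 mouse per library, p-values measure the spread between mice. All 9 members were named, as were genes of fixed lists past the threshold and, for each member, up to 5 other genes with the largest rise seen in every library. The members and lists were chosen with earlier results of these data known.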

Additional observations from a re-analysis of the deposited data

Results flagged for a closer look

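In 6 of 36 groups of 4 to 10 samples, 1 library stood far from the others. Chance flags about 1 in 20 groups where values are independent and normally distributed. Scarce genes and members found in the same cells do not meet this, so the count was not read as an excess. In VSMCs of the 18 week libraries labelled Smad3SmKO, replicate 3 was at 16.3 normalised CPM for Msx2 (next 6.94) and 104 for Prrx2 (next 40.3), and replicate 1 was at 34.7 for Tfap2b (next 12.2). These replicates held 87 and 59 VSMCs. Replicate 1 was also highest for Tfap2b in fibroblasts, at 6.07 (next 2.32). Among 18 week Smad3+/+ libraries, replicate 2 was at 8.00 for Tfap2b in VSMCs (next 1.70), and replicate 3 was lowest for Dlx5 in fibroblasts, at 0.715 (next 2.36).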

How the results depend on the processing

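No paired analysis was possible because the labels give no replicate numbers that tie a mouse of one genotype to one of the other; the library blocks and the batch term are part of the reported fits. With fewer than 6 libraries left, no value came from the purer gate or thinned cells for the VSMC split by Dlx5, nor from these, the stricter gate or libraries with at least 100 VSMCs for that by Tfap2b. Thinned cells gave no value for the splits by Tfap2a in either class or by Tfap2b in fibroblasts either. Several members were scarce, some VSMC libraries were small and depth differed between libraries. Some alternatives also held fewer cells or libraries, and the cause of a change was not tested. Genes called for genotype at 18 weeks in VSMCs were 4, against 11 with DESeq2, 134 with no filter, 1 with the purer gate, 1 with no batch term, 0 with 60 min digestions alone, 0 without libraries whose tracer label and GFP differ, 2 in libraries with at least 100 VSMCs (chosen after seeing the data) and 2 to 8 leaving out each library (2 without Smad3+/+ replicate 2 or Smad3SmKO replicate 4 or 6, 8 without Smad3+/+ replicate 4). At 10 weeks in VSMCs they were 0, against 1 with DESeq2 and 51 with no filter, and the difference between times was 1, against 0 with DESeq2, 70 with no filter and 0 to 1 leaving out each library (0 without Smad3SmKO replicate 6). In fibroblasts, where edgeR called 0 throughout, DESeq2 called 3 at each time and 1 between times.

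Of genes called between cells with and without a member, VSMC counts went from 888 to 554 for Dlx5 with the stricter gate, from 1385 to 109 for Hand2 with thinned cells, from 586 to 332 (purer gate) and 273 (thinned) for Prrx1, from 104 to 211 (DESeq2) and 56 (purer gate) for Tfap2a and from 1001 to 585 for Tfap2b with edgeR's filterByExpr. Fibroblast counts went from 3005 to 1592 (thinned) for Dlx5, from 2056 to 3094 (DESeq2) and 812 (thinned) for Dlx6, from 3217 to 1449 (thinned) for Hand2, from 3496 to 1792 (thinned) for Prrx2 and from 598 to 1201 (DESeq2) for Tfap2a.

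Signs turned as follows (log2). Dlx5 between VSMCs and fibroblasts was −0.019 with no filter, −0.045 with the stricter gate, −0.046 thinned and −0.11 in libraries with at least 100 VSMCs. Mgp with Dlx6 in fibroblasts was −0.31 thinned, and Enpep with Tfap2a in VSMCs −0.22 with the purer gate. For genotype at 10 weeks Tfap2a was −0.0086 in VSMCs (purer gate), and in fibroblasts Dlx6 was 0.067 (stricter gate) and 0.22 (purer gate) and Dlx5 0.043 (purer gate). At 18 weeks in VSMCs Tfap2a was 0.18 (stricter gate) and 0.092 (purer gate), and with 60 min alone Msx1 was 0.18 and Hand2 0.052, and with at least 100 VSMCs 0.16 and 0.029. At 18 weeks in fibroblasts Tfap2a was 0.35 with no batch term, 0.15 with 30 min alone and 0.16 without the libraries whose tracer label and GFP differ, and with 60 min alone Dlx5 was −0.10, Dlx6 −0.86, Msx1 0.30, Tfap2b −1.50, Hand2 0.15 and Prrx2 −0.66.

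Leaving out each library, the 10 week VSMC values ran from −1.47 to 1.74 (Dlx5), −1.45 to 0.75 (Dlx6), −0.020 to 0.46 (Hand2), −0.10 to 0.72 (Msx1), −1.58 to 0.50 (Msx2), −0.27 to 1.38 (Prrx2) and −2.10 to 1.74 (Tfap2b). In fibroblasts they ran from −0.75 to 1.18 (Dlx5), −0.85 to 1.65 (Dlx6), −0.50 to 0.16 (Msx1), −0.41 to 0.017 (Prrx1), −0.47 to 0.56 (Prrx2) and −1.09 to 2.72 (Tfap2b). Most of these turns came without Smad3+/+ 10 week replicate 1. At 18 weeks Tfap2a ran from −0.58 to 0.039 in VSMCs, and in fibroblasts Msx1 from −0.40 to 0.054, Prrx2 from −0.11 to 0.27 and Tfap2a from −0.47 to 0.16. Prrx2 in VSMCs stayed between 1.15 and 1.71, with a lowest adjusted p of 0.399.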
